A study of Mus musculus with 4 samples.

Results

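Ccl3, Ccl4, Ccl5, Ccl6, Ccl9, Xcl1, Cxcl2, Cxcl9, Cxcl10 and Cxcl16 encode inflammatory chemokines, and their transcripts were counted in single immune cells of mouse liver. The 10 genes were taken by symbol, 10 of 32285 genes listed in the deposited matrices, of which 15740 had at least 1 UMI in the barcodes kept. A UMI, or unique molecular identifier, stands for 1 captured molecule. The rule used symbols and no measured value, but the list was drawn up with earlier results of these data known.

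Each of the 4 libraries held CD45+ cells sorted from collagenase-digested livers of 5 pooled mice, after a week of tamoxifen in every group, WT included. The groups were GS(+/delta)Hep, named for glutamine synthetase and written GS here (1 library), URI(+/delta)Hep, named for URI and written URI here (1 library), and WT (2 libraries). The genotype names write the deletions as heterozygous (+/delta) and tagged Hep, read here as hepatocytes, so the sorted cells themselves are not the targeted cell type. They name no Cre driver, and they give no age and no strain. Each library is 1 pool, so GS and URI had no replicate, and every p-value for a genotype measures the spread between the 2 WT pools, which may be partly technical.

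Chemokines are small secreted proteins that steer leukocytes through G-protein-coupled receptors. Ccl3, Ccl4 and Ccl5 are CC chemokines that attract T cells, NK cells and macrophages. Ccl6 and Ccl9 are mouse CC chemokines that act through CCR1. Xcl1 binds XCR1 on cross-presenting dendritic cells, and Cxcl2 binds CXCR2 and draws neutrophils. Cxcl9 and Cxcl10 are interferon-induced ligands of CXCR3, and Cxcl16 is made as a membrane protein that binds CXCR6. In the liver, lymphocytes and myeloid cells in the sinusoids are known sources of several of them.

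Of the 10 genes, 5 lie together on chromosome 11 of GRCm38, where Ccl5, Ccl9, Ccl6, Ccl3 and Ccl4 span 83525778 to 83664683, or 138.906 kb. Ccl3 and Ccl4 are 13.228 kb apart. Cxcl9 and Cxcl10 share a stretch of 27.543 kb on chromosome 5 (92321347 to 92348889), and Cxcl2 is on the same chromosome (90903871 to 90905938). Cxcl16 is at 70453983 to 70459984 on chromosome 11, outside the cluster, and Xcl1 is on chromosome 1 (164931644 to 164935527). These positions are those of whole genes in the GENCODE M21 annotation.

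Promoter windows from RefSeq on GRCm38.p6, from 250 bases before to 50 bases after the gene start, were found for 7 of the 10 genes, and Ccl4, Ccl5 and Cxcl16 are named without one. The windows were searched on both strands for a kB motif (GGGNNNTTCC), an AP-1 motif (TGANTCA) and an ISRE core (GAAANNGAAA), letters settled after the windows had been read. Of these, 4 windows are shown 5′ to 3′, with motif matches in capitals, because they range from no match to matches of all 3 motifs. The Cxcl2 window (chr5:90903649-90903948, plus strand) held 3 kB matches, of which the first 2 overlap. The Cxcl10 window (chr5:92348840-92349139, minus strand) held an ISRE core, 2 kB matches and an AP-1 match. The Ccl9 window (chr11:83578587-83578886, minus strand) held an AP-1 and a kB match, and the Ccl3 window (chr11:83649329-83649628, minus strand) held none of the motifs.
Cxcl2: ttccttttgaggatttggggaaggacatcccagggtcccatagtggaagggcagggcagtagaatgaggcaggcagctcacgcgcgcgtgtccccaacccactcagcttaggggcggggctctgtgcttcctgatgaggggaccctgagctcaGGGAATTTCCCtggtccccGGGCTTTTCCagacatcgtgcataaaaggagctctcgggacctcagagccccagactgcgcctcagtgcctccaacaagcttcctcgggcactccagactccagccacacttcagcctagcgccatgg
Cxcl10: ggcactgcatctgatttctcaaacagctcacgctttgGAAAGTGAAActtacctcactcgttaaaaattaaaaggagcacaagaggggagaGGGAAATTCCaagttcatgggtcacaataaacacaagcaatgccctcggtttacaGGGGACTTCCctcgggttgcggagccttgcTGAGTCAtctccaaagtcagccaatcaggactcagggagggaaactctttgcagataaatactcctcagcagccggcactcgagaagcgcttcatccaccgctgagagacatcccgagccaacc
Ccl9: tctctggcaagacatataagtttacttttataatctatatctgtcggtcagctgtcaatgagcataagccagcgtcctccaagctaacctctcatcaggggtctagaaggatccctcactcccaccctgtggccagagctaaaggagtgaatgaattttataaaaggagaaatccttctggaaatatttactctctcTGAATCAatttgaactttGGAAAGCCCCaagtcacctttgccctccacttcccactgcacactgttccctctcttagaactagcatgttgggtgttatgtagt
Ccl3: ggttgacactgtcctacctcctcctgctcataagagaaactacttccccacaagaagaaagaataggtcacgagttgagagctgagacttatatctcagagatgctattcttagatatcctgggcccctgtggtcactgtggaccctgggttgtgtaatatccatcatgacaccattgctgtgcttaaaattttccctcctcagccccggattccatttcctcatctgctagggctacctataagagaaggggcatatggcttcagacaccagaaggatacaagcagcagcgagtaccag

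A kB match was present in 3 of the 7 windows (Cxcl2, Cxcl10 and Ccl9), against 5.56% of all 32851 windows. An AP-1 match was present in 3 of 7 (Ccl9, Cxcl9 and Cxcl10), against 7.81% of all windows, and an ISRE core in Cxcl10 alone, against 3.44%. A match describes the letters only and does not show that a factor binds there. Because the letters were settled after these windows had been read, the shares are a description and no test of enrichment.

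Barcodes with at least 500 UMIs were kept, 7846 in GS, 9095 in URI, 8480 in WT replicate 1 and 7453 in WT replicate 2, with median depths of 4445, 4971, 3761.5 and 2657 UMIs in that order. They were gated by raw UMIs of marker genes that are no chemokines. The gates were Cd8a T (Cd3e and Cd8a), other T (Cd3e without Cd8a), Cd3e and Ncr1 (both genes in 1 barcode), NK (Ncr1 without Cd3e), B (Cd79a), neutrophil (Csf3r above Csf1r), monocyte (Csf1r) and basophil (Gata2). Barcodes with gate genes of more than 1 lineage were called mixed (5707 in all) and those with none ungated (1648). The basophil gate was the smallest, with 29, 53, 51 and 34 barcodes in GS, URI, WT replicate 1 and WT replicate 2. All 6 basophil marker genes were detected there in every library at a summed 4418 to 6560 CPM, where CPM is UMIs per 1000000 UMIs of a gate in 1 library. Neutrophil and monocyte markers summed to 76356 to 137481 CPM and 17311 to 21445 CPM in their own gates. The monocyte marker Cx3cr1 had 0 UMIs in every gate and library, which may also mean that it had no probe in this hybridisation assay. Markers of Kupffer cells, the resident liver macrophages, summed to at most 4.07 CPM in any gate, so the monocyte gate held next to none of their RNA.

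The libraries stood apart in ways that touch several results. Y-linked Ddx3y was at 79.5 CPM in GS, 221.7 CPM in URI, 4.77 CPM in WT replicate 1 and 117.6 CPM in WT replicate 2, so the pools differed in Y-linked RNA. Over all barcodes, summed immediate early genes were at 23651, 24714, 17625 and 38695 CPM in the same order. There WT replicate 1 was the lowest library for 7 of the 10 chemokine genes, and WT replicate 2 the highest for 6. The mix of cells differed too. The neutrophil gate held 9.09, 8.26, 7.71 and 17.0% of barcodes in the same order, and the Cd8a T gate 15.8, 12.4, 17.8 and 6.31%. Levels over all barcodes include this mix, and its part was not tested. Ccl6, highest in WT replicate 2 over all barcodes, was lower there than in WT replicate 1 in the neutrophil, monocyte and basophil gates. Any pair of libraries shared 1480 to 2076 droplet barcodes and no full barcode, since the libraries were multiplexed. Levels are not compared between genes, because the number of probes per gene differs in this hybridisation assay.

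**Figure D1:**
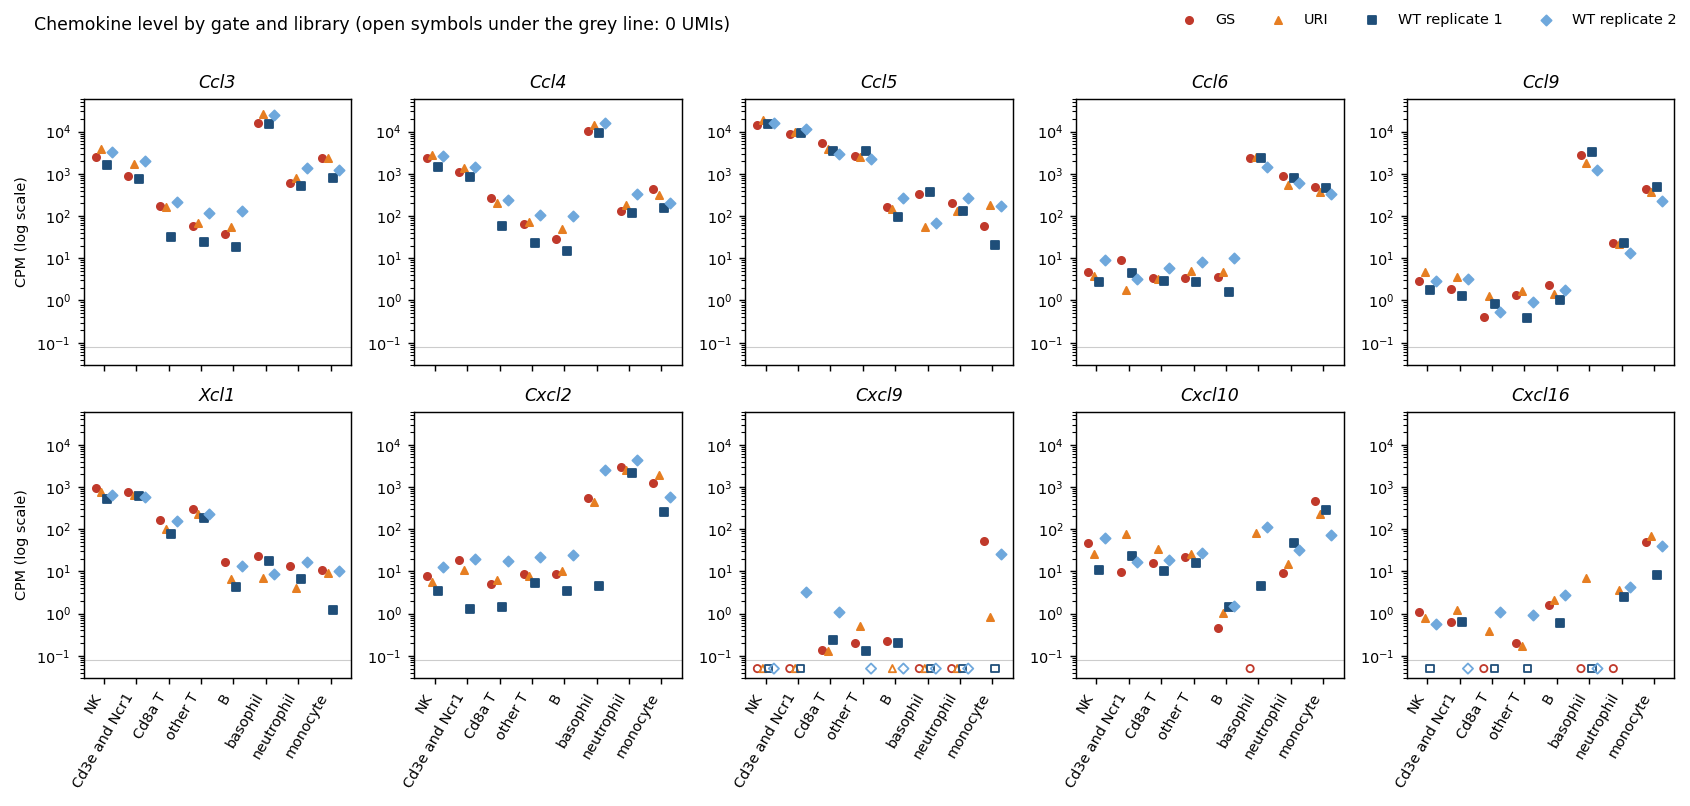
Level of each chemokine gene (CPM, log axis) in the 8 gates, with 1 point per library. By the mean of the libraries, Ccl3, Ccl4, Ccl6 and Ccl9 were highest in the basophil gate, Ccl5 and Xcl1 in the NK gate, Cxcl2 in the neutrophil gate, and Cxcl9, Cxcl10 and Cxcl16 in the monocyte gate, except that in single libraries another gate was higher for Xcl1 (WT replicate 1), Cxcl9 (WT replicate 1) and Cxcl10 (WT replicate 2).

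Ccl3, a CCR1 ligand, had its highest level in the basophil gate, at 16241 CPM in GS, 26609 CPM in URI, 14972 CPM in WT replicate 1 and 25141 CPM in WT replicate 2. The NK gate came next with 2537, 3895, 1581 and 3269 CPM in the same order. The basophil level was 6.40 to 9.47 times the NK level within a library, and the 2 gates did not overlap. Below them, the monocyte gate (792 to 2407 CPM) and the Cd3e and Ncr1 gate (770 to 2007 CPM) could not be ordered by their ranges, and neutrophils were at 509 to 1340 CPM. Cd8a T cells (31.9 to 209 CPM) and other T cells (24.3 to 121 CPM) overlapped B cells (18.6 to 131 CPM). After thinning of each barcode to 1000 UMIs, 92.2 to 100% of basophil-gated barcodes had a Ccl3 UMI, as did 41.7 to 69.8% in the NK gate and 1.33 to 5.58% in the B gate. Immediate early genes summed to 61876 to 197442 CPM in the basophil gate and to 13693 to 36431 CPM in the NK gate. Their part in the Ccl3 levels was not tested.

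Of 99258 Ccl3 UMIs, the NK gate held 32.2%, the mixed barcodes 19.8% and the basophil gate 16.3%, although the basophil gate had 0.508% of barcodes. The neutrophil gate held 10.3%, the monocyte gate 6.50% and the Cd3e and Ncr1 gate 6.16%. With the basophil gate left out, the share of the NK gate was 37.9 ± 5.09% (SD, n = 4 libraries).

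Ccl4, a CC chemokine that attracts lymphocytes and macrophages, was also at its highest in the basophil gate, with 10041 CPM in GS, 14522 CPM in URI, 9408 CPM in WT replicate 1 and 16004 CPM in WT replicate 2. Its NK level was 2393, 2778, 1413 and 2625 CPM, and the basophil level was 4.20 to 6.66 times as high. The monocyte gate had only 436, 313, 157 and 200 CPM, so the basophil level was 23.0 to 80.2 times the monocyte level. Of 66431 Ccl4 UMIs, 38.8% were in the NK gate, 14.3% in the basophil gate and 8.76% in the Cd3e and Ncr1 gate.

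The number of Ccl4 UMIs per Ccl3 UMI differed between gates. Its absolute size depends on the probes of each gene, so only its differences between gates are read. In the Cd8a T gate there were 1.47 Ccl4 UMIs per Ccl3 UMI in GS, 1.24 in URI, and 1.80 and 1.17 in WT replicates 1 and 2. The NK gate had 0.943, 0.713, 0.894 and 0.803, and the basophil gate 0.618, 0.546, 0.628 and 0.637. Neutrophils had 0.216 to 0.242 and monocytes 0.133 to 0.199 Ccl4 UMIs per Ccl3 UMI. The ranges of the Cd8a T, NK, basophil, neutrophil and monocyte gates did not overlap with each other. The other lymphoid gates lay between or across them: the Cd3e and Ncr1 gate at 0.716 to 1.27 overlapped both Cd8a T and NK, the other T gate at 0.879 to 1.13 overlapped NK, and B cells at 0.764 to 0.894 lay within the NK range.

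**Figure D2:**
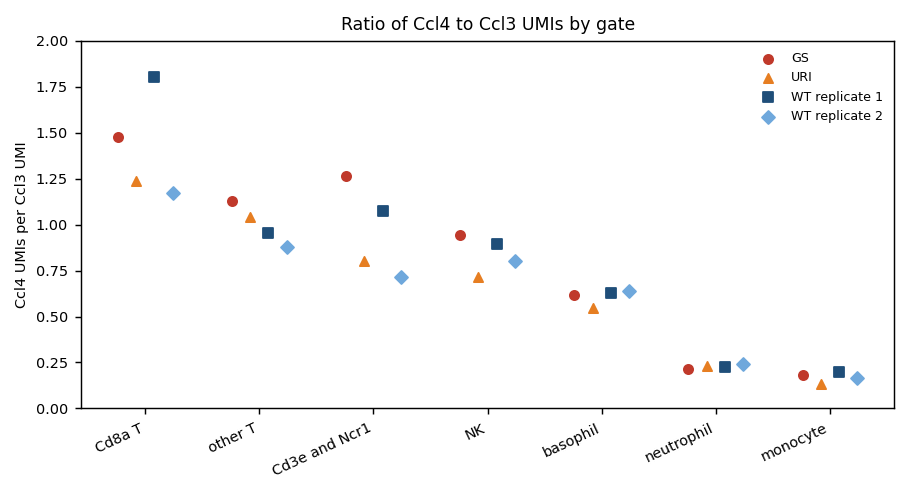
Ccl4 UMIs per Ccl3 UMI in each gate, on a linear axis with 1 point per library, GS and URI left of WT. The neutrophil and monocyte gates lay between 0.133 and 0.242, below the basophil gate and all T and NK gates, and the T and NK gates overlapped in part.

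Within most gates Ccl4 was more often detected in barcodes with Ccl3 than in those without. At 1000 UMIs per barcode, 54.5 to 73.2% of NK-gated barcodes with Ccl3 had Ccl4, against 27.5 to 41.5% of those without Ccl3. In the Cd8a T gate the shares were 31.4 to 51.3% with Ccl3 and 3.42 to 7.94% without, and in neutrophils 16.9 to 21.3% with and 5.70 to 9.01% without. In monocytes the ranges overlapped, at 10.3 to 27.5% with and 4.08 to 13.04% without. No test was made over cells, which share a library.

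Ccl5, a CC chemokine made by NK and memory T cells, was mainly a transcript of the NK and T gates. It stood at 14244 CPM in GS, 18704 CPM in URI, 15032 CPM in WT replicate 1 and 16140 CPM in WT replicate 2 in the NK gate. The Cd3e and Ncr1 gate had 8672, 9696, 9145 and 11613 CPM, below the NK gate in every library and without overlap. The Cd8a T gate (2909 to 5353 CPM) and the other T gate (2281 to 3392 CPM) overlapped each other. Neutrophils, monocytes, basophils and B cells had 20.3 to 375 CPM, against 2706 to 3578 CPM in the free RNA of barcodes under 100 UMIs. At 1000 UMIs, 98.9 to 99.6% of NK-gated barcodes had a Ccl5 UMI, and 5.05 to 10.4% of B-gated ones did.

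Xcl1, the XCR1 ligand, was a transcript of the NK and T gates. Its level was 933 CPM in GS, 745 CPM in URI, 513 CPM in WT replicate 1 and 646 CPM in WT replicate 2 in the NK gate, and 755, 629, 602 and 577 CPM in the Cd3e and Ncr1 gate. These 2 gates overlapped. Other T cells followed at 302, 224, 180 and 227 CPM, above the Cd8a T gate at 167, 98.4, 76.7 and 158 CPM in every library. By UMIs the other T gate held 28.9% and the NK gate 28.7% of the 27869 Xcl1 UMIs, with no clear order between them.

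Xcl1 was unevenly spread inside both gates. Other T barcodes with Klrb1c, the NK1.1 gene of NK and NKT cells, had 447 to 716 CPM, against 96.4 to 137 CPM in those without, a ratio of 3.69 to 6.01. In the NK gate, barcodes without Eomes, a transcription factor of conventional NK cells that liver type 1 innate lymphoid cells lack, had 1460 CPM in GS, 1352 CPM in URI, 956 CPM in WT replicate 1 and 813 CPM in WT replicate 2. Those with Eomes had 732, 563, 371 and 566 CPM, so Xcl1 was 1.44 to 2.58 times as high without Eomes. Ccl5 showed the opposite order, with Eomes-positive barcodes at 1.12 to 1.19 times the level of the others in all 4 libraries.

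**Figure D3:**
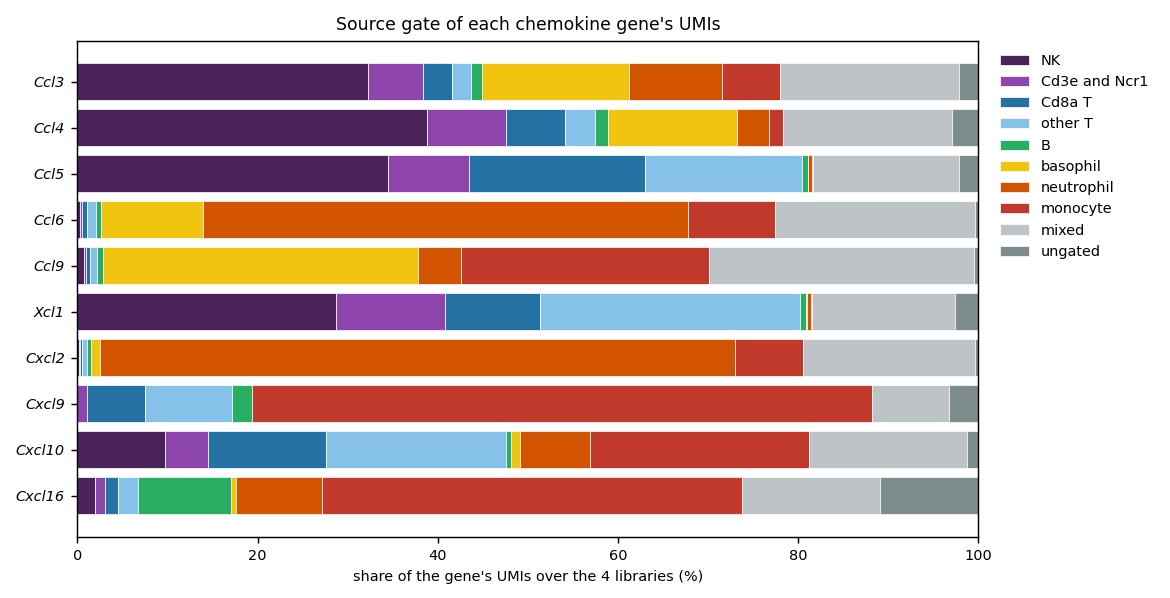
Share of each gene's UMIs (percent) held by each gate, summed over the 4 libraries. In these sums the NK gate led for Ccl3, Ccl4 and Ccl5, the neutrophil gate for Ccl6 and Cxcl2, the basophil gate for Ccl9, and the monocyte gate for Cxcl9, Cxcl10 and Cxcl16, while the other T and NK gates were level for Xcl1.

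Ccl6, a mouse CCR1 ligand, was a myeloid and basophil transcript. Its basophil level was 2336 CPM in GS, 2449 CPM in URI, 2416 CPM in WT replicate 1 and 1478 CPM in WT replicate 2. Neutrophils had 870, 529, 808 and 619 CPM and monocytes 478, 366, 450 and 336 CPM. The 3 gates kept this order in every library without overlap, and every lymphoid gate lay at or below 10.0 CPM. Neutrophils held 53.8% of the 15395 Ccl6 UMIs.

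Ccl9, another mouse CCR1 ligand, separated monocytes from neutrophils. It was at 2858 CPM in GS, 1823 CPM in URI, 3249 CPM in WT replicate 1 and 1203 CPM in WT replicate 2 in the basophil gate, and at 435, 371, 481 and 231 CPM in the monocyte gate. Neutrophils had 23.5, 21.7, 23.2 and 13.1 CPM, and lymphoid gates at most 4.78 CPM. Basophil-gated barcodes held 35.0% of the 5086 Ccl9 UMIs and monocyte-gated ones 27.5%, while in WT replicate 2 the basophil gate had 140 and the monocyte gate 220.

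Cxcl2, the CXCR2 ligand that recruits neutrophils, was itself at its highest in neutrophils, with 2920 CPM in GS, 2537 CPM in URI, 2139 CPM in WT replicate 1 and 4449 CPM in WT replicate 2. Monocytes had 1246, 1890, 255 and 571 CPM, a ratio of neutrophils to monocytes of 1.34 to 8.38. The neutrophil gate held 61.5 to 79.1% of the Cxcl2 UMIs of a library. Basophil values rested on few cells, from 4.41 CPM in 1 barcode of WT replicate 1 to 2510 CPM in 11 barcodes of WT replicate 2.

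Neutrophil values were also split by maturity markers. Barcodes without Camp, a granule gene of immature neutrophils, had 2284 to 4580 CPM of Cxcl2, against 213 to 1700 CPM in those with Camp, and the level without Camp was 2.69 to 10.7 times as high. Barcodes with Camp were few outside URI, with 15 in GS, 23 in WT replicate 1 and 35 in WT replicate 2, against 137 in URI. Ccl6 was 2.07 to 7.36 times as high without Camp. Ccl6 was also 1.97 to 3.54 times as high in neutrophils with Cxcr2, the receptor of mature neutrophils, as in those without it. Cxcl2 did not follow Cxcr2 in the same way, with levels 0.844 to 5.16 times as high with Cxcr2, and Ccl3 was 0.399 to 1.28 times as high. By Mmp8, a granule gene of later maturation, Cxcl2 was 0.580 to 1.15 times as high and Ccl6 1.03 to 1.93 times as high with the marker.

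Cxcl10, a CXCR3 ligand, was at 462 CPM in GS, 227 CPM in URI, 292 CPM in WT replicate 1 and 73.5 CPM in WT replicate 2 in the monocyte gate. These values came from 14, 28, 11 and 20 monocyte-gated barcodes with the transcript. The monocyte gate held 24.3% of the 3829 UMIs, other T cells 19.9% and Cd8a T cells 13.1%. The other T gate held more of them than the monocyte gate in URI (303 against 279 UMIs) and in WT replicate 2 (119 against 70 UMIs). Lymphoid and neutrophil gates reached at most 77.8 CPM, the basophil gate had 0 to 111.7 CPM and was 1.52 times the monocyte level in WT replicate 2, and B cells stayed at 0.459 to 1.501 CPM. After thinning, 3.59 to 9.46% of monocyte-gated barcodes had a Cxcl10 UMI, against 0.092 to 0.184% of B-gated ones.

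Cxcl9 was close to absent, with 93 UMIs in 28 barcodes of all libraries. The monocyte gate had 39 UMIs in 3 barcodes of GS, 1 UMI in URI, 0 UMIs in WT replicate 1 and 24 UMIs in 2 barcodes of WT replicate 2. Cxcl16, the CXCR6 ligand, was at 50.6 CPM in GS, 68.4 CPM in URI, 8.35 CPM in WT replicate 1 and 41.0 CPM in WT replicate 2 in the monocyte gate, from 37, 84, 7 and 39 UMIs. That gate held 46.6% of the 358 Cxcl16 UMIs, and the other 7 gates reached at most 6.95 CPM. Outside the monocyte gate Cxcl16 had 55 UMIs in mixed and 39 in ungated barcodes, 37 in B cells, 34 in neutrophils, and 2 to 8 UMIs in each other gate. Dendritic cells had no gate of their own. An ungated GS barcode with 20 Cxcl16 UMIs had 3 UMIs of Flt3 and 6 of Zbtb46, both listed dendritic cell markers. A monocyte-gated URI barcode with 11 had 6 UMIs of Itgax, also listed, and 0 of the monocyte marker Lyz2. Another monocyte-gated URI barcode with 20 had 148 UMIs of Lyz2. Cxcl9 had at most 9 UMIs in any gate outside monocytes, too few to order those gates.

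A small number of barcodes carried much of each transcript. The 1% of barcodes with the most UMIs of a gene held 35.4 ± 6.16% of Ccl3, 36.3 ± 5.21% of Ccl4 and 31.3 ± 6.82% of Ccl6 UMIs (SD, n = 4 libraries). For Xcl1 the share was 33.5 ± 3.88% and for Cxcl2 39.2 ± 10.8%. Ccl5 had the lowest share of the 10, at 15.1 ± 1.89%, and Ccl9 (72.1 ± 7.30%) and Cxcl10 (82.5 ± 5.47%) were held by few barcodes. The same barcodes held 1.26 to 2.12% of all UMIs for these 8 genes, well below the shares of the genes. Shares of sparse genes depend on their counts, and the barcodes were picked by the same UMIs, so no test was made.

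**Figure D4:**
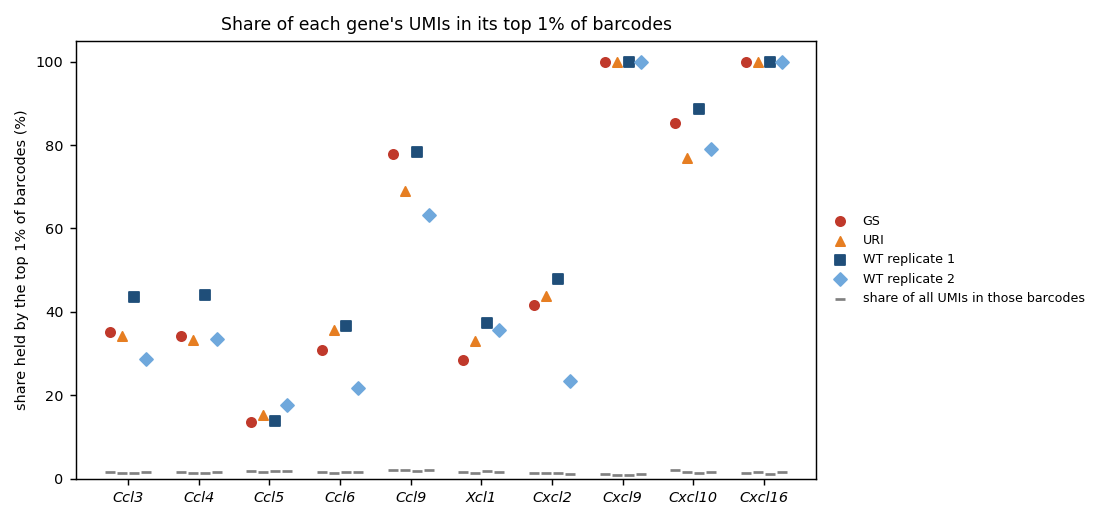
Share of each gene's UMIs (percent) in the 1% of barcodes with the most UMIs of that gene, with 1 point per library, and grey dashes for the share of all UMIs in the same barcodes. Ccl5 was lowest at 15.1% on average and Cxcl10 reached 82.5%, while Cxcl9 and Cxcl16 stood at 100% because under 1% of barcodes had a UMI.

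Top barcodes named further sources. Of the 330 top Ccl3 barcodes, 108 were in the basophil gate and 85 in the NK gate. The 330 top Ccl5 barcodes included 112 in the Cd8a T gate and 104 in the NK gate, while NK cells had the higher mean. That order differed between libraries. Cd8a T barcodes led in GS (48 against 9 NK) and WT replicate 1 (34 against 19), and NK barcodes in URI (48 against 20) and WT replicate 2 (28 against 10). For Xcl1, 122 were NK, 63 other T and 54 Cd3e and Ncr1 barcodes. For Cxcl2, 227 were neutrophils and 34 monocytes, and for Ccl9 the monocyte and basophil gates had 111 each.

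High Cxcl10 counts were found in rare barcodes of several lineages. From 10 to 23 barcodes held 50% of its UMIs in a library. The highest barcodes were an NK-gated one in GS with 108 Cxcl10 UMIs, an other T one in URI with 108, and a monocyte-gated one in GS with 107. For Ccl3, the top 10% of Cd8a T barcodes held 85.1 to 100% of that gate's UMIs, while the top 10% of basophil-gated barcodes held 24.6 to 27.5%. Between them lay monocytes (41.7 to 58.1%), NK cells (42.6 to 60.3%), the Cd3e and Ncr1 gate (55.6 to 71.7%) and neutrophils (67.9 to 77.9%). Where under 10% of barcodes have a UMI, such a share is 100% by necessity.

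The gates were then compared within libraries by edgeR's quasi-likelihood test on summed UMIs, with library as a term and Benjamini-Hochberg adjustment over all genes tested. NK against Cd8a T called 5 of 9 tested chemokine genes, all higher in NK, where 52.9% of all genes were called and 25.8% were called higher in NK. The log2 differences were 4.54 (SE 0.34) for Ccl3, 3.81 (SE 0.30) for Ccl4, 2.66 (SE 0.17) for Xcl1, 2.14 (SE 0.31) for Ccl5 and 2.07 (SE 0.46) for Ccl9, with adjusted p-values of 4.49e-12, 1.32e-11, 2.04e-13, 1.41e-06 and 0.000411. All were higher in NK in 4 of 4 libraries. Ccl9 rested on 36 NK and 21 Cd8a T UMIs, at most 4.78 CPM in either gate, against 36.3 to 43.8 CPM in free RNA. With total UMIs alone as scaling, 38.5% instead of 48.8% of all called genes were higher in NK, and the same 5 genes were called.

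Cd8a T against other T called 3 of 9 genes, against 20.3% of all genes. Ccl4 was higher in Cd8a T cells by 1.52 log2 units (SE 0.28, adjusted p = 0.000203), Ccl3 was higher by 1.07 (SE 0.31, adjusted p = 0.0126), and Xcl1 had a difference of -0.95 (SE 0.17, adjusted p = 7.79e-05). Ccl5 did not pass, at 0.51 (SE 0.30, adjusted p = 0.269). The Ccl3 call was lost without GS (adjusted p = 0.118) and without URI (adjusted p = 0.0984), and without a library term none of the 3 was called. In both gates Ccl3 (24.3 to 209 CPM) and Ccl4 (23.2 to 260 CPM) were below free RNA in every library. Free RNA had 385 to 962 CPM of Ccl3 and 315 to 560 CPM of Ccl4.

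Neutrophil against monocyte called 7 of 9 genes, against 66.8% of all genes, a share close to that background. Cxcl2 was higher in neutrophils by 2.60 log2 units (SE 0.34, adjusted p = 1.75e-07) and Ccl6 by 1.66 (SE 0.21, adjusted p = 8.07e-08). Ccl9 (-3.35, SE 0.14), Cxcl16 (-3.17, SE 0.44) and Cxcl10 (-2.50, SE 0.49) were lower, with adjusted p-values of 2.39e-17, 4.01e-07 and 5.91e-05. This contrast depended on scaling, since TMM moved the median of all genes by 0.84 log2 units relative to total UMIs. With total UMIs alone, Cxcl2 (1.72), Ccl6 (0.78), Ccl9 (-4.21), Cxcl16 (-3.97) and Cxcl10 (-3.36) stayed called, and 19.7% instead of 50.5% of all called genes were higher in neutrophils. Ccl5 (1.56) and Xcl1 (1.14) were called with TMM and had adjusted p-values of 0.0662 and 0.575 without it, at levels below those of free RNA in both gates. Ccl3 moved the other way, with -0.23 (adjusted p = 0.509) under TMM and -1.10 (adjusted p = 0.00155) without, and Ccl4 turned sign, with 0.25 under TMM and -0.60 without, not called in either.

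Basophil against monocyte called 6 of 9 genes, against 40.6% of all genes. Ccl4 (5.62, SE 0.33), Ccl3 (3.74, SE 0.32), Ccl9 (2.65, SE 0.11) and Ccl6 (2.54, SE 0.23) were higher in the basophil gate, with adjusted p-values of 2.47e-15, 1.68e-11, 6.92e-19 and 6.25e-11. Cxcl16 (-3.84, SE 0.89, adjusted p = 0.000673) and Cxcl10 (-2.29, SE 0.84, adjusted p = 0.0282) were lower. The Cxcl10 call was lost without GS (adjusted p = 0.1602) and without WT replicate 1 (adjusted p = 0.136). The basophil gate entered with 25 or more barcodes per library, a limit set after its size was seen.

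GS was then set against WT and URI against WT, in all barcodes and in 7 gates, with the B gate not tested. The aim was to show whether the hepatocyte genotypes went with chemokine levels in the immune cells. No chemokine gene passed the threshold in any of these 16 comparisons by edgeR, and none by DESeq2. Of all genes, 0.0% were called in GS against WT in every stratum. In URI against WT they were 0.0391% in all barcodes, 0.663% in neutrophils and 0.0809% in monocytes, and 0.0% in the other gates tested. Under an unadjusted p of 0.05, edgeR had 5 of 9 chemokine genes in GS monocytes (2.2% of all genes), 4 of 9 in URI monocytes (1.71%), and 2 of 9 in neutrophils of GS (1.58%) and of URI (4.46%). In URI it had 1 in the Cd8a T gate (0.147% of all genes), 1 in the Cd3e and Ncr1 gate (0.546%) and 1 in the basophil gate (1.17%). These fits had 1 residual degree of freedom, from the WT libraries.

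**Figure D5:**
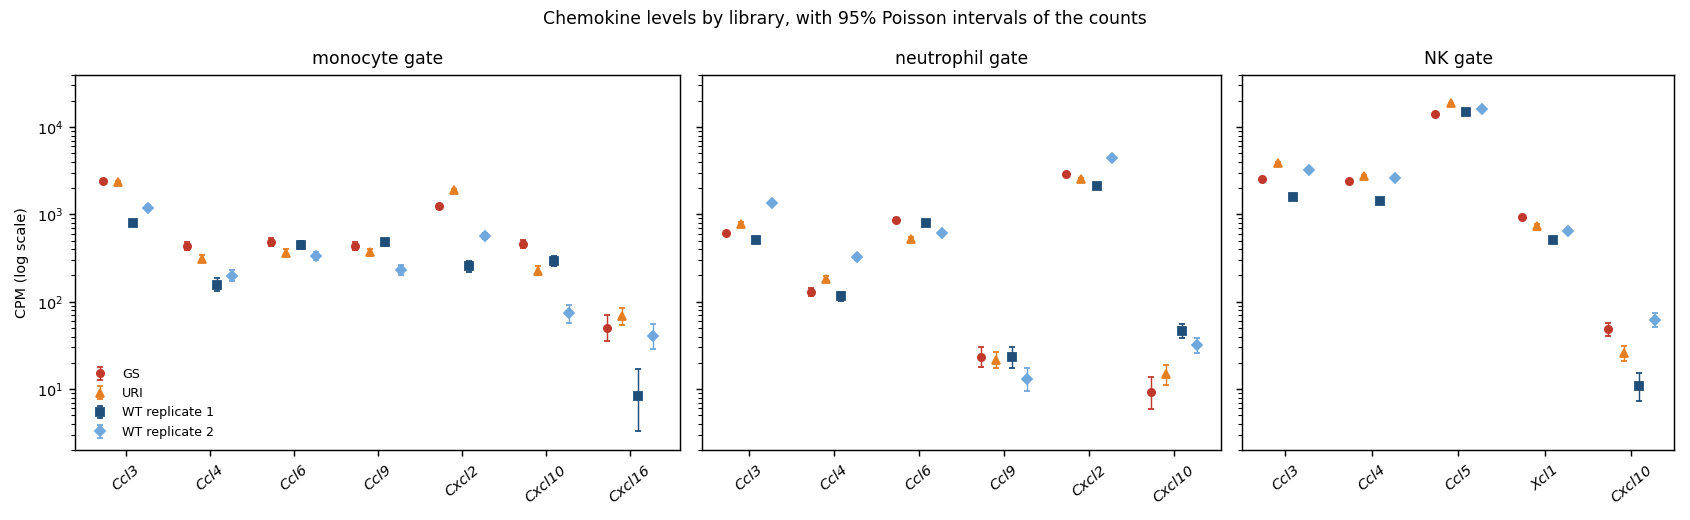
Level of chemokine genes (CPM, log axis) in the monocyte, neutrophil and NK gates, with GS and URI left of the 2 WT libraries and bars for exact 95% Poisson intervals, which cover counting error only. In monocytes GS and URI lay above both WT libraries for Ccl3, Ccl4, Cxcl2 and Cxcl16, and WT replicate 2 was above WT replicate 1 for Ccl3 in all 3 gates.

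In the monocyte gate several chemokine genes had their highest values in GS or URI, with none past the threshold. Cxcl2 was at 1246 CPM in GS and 1890 CPM in URI, against 255 and 571 CPM in WT, a log2 change of 1.56 (SE 0.44, adjusted p = 1) for GS and 2.13 (SE 0.43, adjusted p = 0.0613) for URI. Both lay above both WT libraries. These Cxcl2 values rested on few barcodes, since 50% of the gate's UMIs lay in 6 barcodes of GS and 13 of URI. In WT replicates 1 and 2 they lay in 4 and 7 barcodes. Ccl3 was at 2407 CPM in GS and 2349 CPM in URI, against 792 and 1201 CPM in WT, with log2 changes of 1.25 (SE 0.38) and 1.18 (SE 0.38), neither called. Ccl4 was at 436 CPM in GS and 313 CPM in URI, against 157 and 200 CPM in WT, with log2 changes of 1.27 (SE 0.41) and 0.76 (SE 0.41), neither called. Cxcl16 was at 50.6 and 68.4 CPM, against 8.35 and 41.0 CPM in WT.

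In GS monocytes 7 of 9 chemokine genes lay above both WT libraries, where 31.0% of all genes did. In URI monocytes it was 5 of 9, against 31.7%. Cxcl10 (log2 change 1.35, SE 0.51) and Cxcl9 (1.99, SE 0.83) were the further GS genes with an unadjusted p under 0.05. With 1 WT library left out, the Cxcl10 change was 0.68 to 2.60. For Cxcl9 it was 1.02 without WT replicate 1, and no fold can be given without WT replicate 2, since WT replicate 1 had 0 UMIs. The 39 GS monocyte UMIs of Cxcl9 came from 3 barcodes, 1 of which had 25. That barcode had 4 UMIs of the dendritic cell marker Zbtb46, and 7 and 11 UMIs of the monocyte markers Lyz2 and Ly6c2. The URI Cxcl2 difference passed the threshold with total UMIs alone as scaling (adjusted p = 0.00127), when low counts were not filtered, with gate genes at 2 UMIs or more, with barcodes of 1000 UMIs or more, and with doublets left out.

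Other gene lists were summed in the monocyte gate. Immediate early genes summed to 41142 CPM in GS, 40882 CPM in URI, 28123 CPM in WT replicate 1 and 46302 CPM in WT replicate 2. Genes of NF-kB feedback summed to 6896, 8941, 3942 and 6777 CPM. In WT replicate 2 the immediate early sum was above GS and URI and the NF-kB sum was close to GS, while Cxcl2 and Ccl3 were below GS and URI. Their part in the monocyte values was not tested, nor was that of the differing Y-linked signal.

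In NK cells, URI lay above both WT libraries for 5 of 8 genes, against 21.3% of all genes, and GS for 1 of 8, against 27.1%. Ccl3 was at 2537 CPM in GS and 3895 CPM in URI, against 1581 and 3269 CPM in WT, with log2 changes of 0.02 (SE 0.57) and 0.66 (SE 0.56). Ccl4 had 2393 CPM in GS and 2778 CPM in URI, against 1413 and 2625 CPM in WT. The WT libraries differed from each other by more than URI differed from the higher of them. Immediate early genes in the NK gate had the same order as Ccl3 except for WT replicate 2, with 22458 CPM in GS, 25487 CPM in URI, 13693 CPM in WT replicate 1 and 36431 CPM in WT replicate 2, and their part was not tested.

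In neutrophils Cxcl10 was at 9.26 CPM in GS and 14.7 CPM in URI, below both WT libraries at 46.7 and 31.7 CPM. The UMIs were 24, 57, 113 and 104 in that order, and few barcodes carried them. In WT replicate 1 at least 50% lay in 2 barcodes, and the highest barcode had 50 UMIs. URI and WT replicate 2 each had that share in 3 barcodes. Only 10 GS barcodes of this gate had any Cxcl10 UMI. The log2 changes were -2.03 (SE 0.51, adjusted p = 0.123) for GS and -1.44 (SE 0.47, adjusted p = 0.204) for URI, neither called. Interferon response genes summed to 1316 CPM in GS, 1446 CPM in URI, 2358 CPM in WT replicate 1 and 1798 CPM in WT replicate 2 in that gate, so GS and URI were below both WT libraries here too, and their part was not tested. Cxcl2 was at 2920 CPM in GS and 2537 CPM in URI, between the WT values of 2139 and 4449 CPM. In URI 137 of 751 neutrophil-gated barcodes had Camp, against 15 of 713 in GS and 23 of 654 and 35 of 1266 in WT. The part of this difference in the neutrophil values was not tested.

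In the Cd8a T gate Ccl5 was at 5353 CPM in GS and 3770 CPM in URI, against 3473 and 2909 CPM in WT, with log2 changes of 0.72 (SE 0.43) and 0.23 (SE 0.44), neither called. Cxcl10 was at 15.8 CPM in GS and 34.2 CPM in URI in this gate, against 10.2 and 18.3 CPM in WT, a log2 change of 1.31 (SE 0.56) for URI. In the Cd3e and Ncr1 gate Cxcl10 was at 9.50 CPM in GS and 77.8 CPM in URI, against 23.4 and 16.3 CPM in WT (log2 change 1.88 for URI, SE 0.52, not called). Both URI values of Cxcl10 rested on few barcodes. At least 50% of 268 UMIs lay in 6 barcodes of the Cd8a T gate, and of 129 UMIs in 2 of the Cd3e and Ncr1 gate.

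Over all barcodes, Xcl1 was at 261.8 CPM in GS and 181.1 CPM in URI, against 148.1 and 162.7 CPM in WT, with log2 changes of 0.71 (SE 0.42) and 0.19 (SE 0.43). GS lay above both WT libraries for 3 of 10 genes, against 24.5% of all genes, and URI for 2 of 10, against 22.3%. Ccl3 ranged over 409.2 to 951.9 CPM, and both ends were WT libraries. GS and URI both lay between the WT libraries for Ccl3, Ccl4, Ccl9, Cxcl2, Cxcl9 and Cxcl16 in all barcodes.

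Other chemokine genes had few UMIs in these cells. Of 26 listed, 25 were in the matrices, and 6 had 0 UMIs, which may also mean that they had no probe. Ccl2, a monocyte attractant, was the 1 gene above 20 CPM in a gate, at 90.2 CPM on average in monocytes. Ccl24, an eotaxin, was the 1 gene of either list called for a genotype, in URI neutrophils, with 27 UMIs in URI and 0 UMIs in GS and in both WT libraries. It was named after its values were seen.

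Of 23 receptor genes, 15 were above 20 CPM in a gate. Those named by their highest gate level were Cxcr2 in neutrophils (1757 CPM on average), Ccr1 in neutrophils (802.5 CPM), Ccr7 in B cells (734 CPM), Cxcr4 in B cells (726 CPM), Ccr2 in monocytes (626 CPM) and Cxcr5 in B cells (581 CPM). Cxcr2, the receptor of Cxcl2, was thus highest in the gate that was highest in Cxcl2. Receptors of other ligands were looked up after the values were seen. Cxcr3 and Cxcr6 were highest in the other T gate (315.1 and 337.3 CPM). Ccr1 was also at 305.5 CPM in the basophil gate, and Xcr1 had 22 UMIs in all. NK against Cd8a T called 3 of 16 tested receptors higher and 8 lower, against 52.9% of all genes called.

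The genes with the most similar pattern were found by Pearson's r of log2(CPM + 1) over 32 sums (8 gates in 4 libraries), among 7740 genes with a mean of at least 20 CPM. Ccl3 was closest to Ccl4 (r = 0.936), then Ptms and Nfil3, and Ccl4 to Ccl3, Os9 and Lag3. Ccl5 was closest to Il2rb (r = 0.978), the beta chain of the IL-2 and IL-15 receptor, then Samd3 and Xcl1 (r = 0.974). Xcl1 was closest to Il2rb (r = 0.975), Ccl5 and Samd3. Cxcl2 was closest to Trib1 (r = 0.925), Cebpb and Hcar2, and Ccl6 to Hacd4 (r = 0.987), Kcnj2 and Nlrp3. Ccl9 was closest to Adora2b (r = 0.979), Cxcl10 to Atox1 (r = 0.847), Cxcl16 to Aif1 (r = 0.890) and Cxcl9 to Necap2 (r = 0.679). Sums of 1 library share its depth and cells, so these are descriptions with no p.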

How the data were processed

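The authors deposited unfiltered matrices of whole-number UMI counts per gene and barcode, made with Cell Ranger 8.0.0 on mm10 per the submitters' processing notes, from fixed cells hybridised to a transcriptome-wide probe set per the labels' protocols. The 59 rows without a gene ID held 0.0535 to 0.0710% of UMIs and were left out. Barcodes of at least 500 UMIs were kept. The libraries held 39451266 (GS), 51920505 (URI), 37783065 (WT replicate 1) and 24041049 (WT replicate 2) UMIs.

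UMIs were summed per library and gate and tested with edgeR 4.0.16 (quasi-likelihood test, TMM, filterByExpr, Benjamini-Hochberg over all genes tested, threshold 0.05), in R 4.3.3, with DESeq2 1.42.0 as an alternative. The SE of a log2 change is its size divided by the square root of the F statistic. Genotype fits held all 4 libraries. Gate fits held 1 sum per gate and library with library as a term. A gate needed at least 50 barcodes in each library, or 25 for the basophil gate, a limit set after its counts were seen. The B gate met the limit of 50 but was left out of the genotype fits. Scripts were tested on simulated data. Doublets, called with Scrublet in scanpy 1.11.5 (4.62 to 5.13% of barcodes), stayed in except in an alternative. In WT replicate 1 the automatic threshold marked 0 barcodes, so the mean threshold of the other 3 libraries was used there.

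Intervals are exact at 95% and cover counting error only, as does the limit of 3 counts. The genes, gene lists and rules were chosen with earlier results of these data known. Outside the 10 genes, the 6 listed chemokine and receptor genes with the highest level in a gate are named, and for each of the 10 the genes nearest in pattern.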

Additional observations from a re-analysis of the deposited data

Results flagged for a closer look

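The 2 results below were picked out because 1 gene moved opposite ways in 2 gates of the same contrast. Only a chosen set of gene and gate pairs was searched, so the 2 results are not all that met this rule. For example, Ccl5 in GS lay above both WT libraries in the Cd8a T gate and below both in the NK gate. Cxcl10 in URI also lay above both in the Cd3e and Ncr1 gate. In GS against WT, Cxcl10 lay above both WT libraries in the monocyte gate (log2 change 1.35) and below both in the neutrophil gate (-2.03), a gap of 3.37 log2 units. In URI against WT, Cxcl10 lay above both WT libraries in the Cd8a T gate (1.31) and below both in the neutrophil gate (-1.44), a gap of 2.74 log2 units. With 1 WT library left out, the GS monocyte change of Cxcl10 was 0.68 to 2.60 and the GS neutrophil change -2.36 to -1.62, and the URI changes were 0.89 to 1.75 in the Cd8a T gate and -1.77 to -1.05 in neutrophils. The difference between gates was not tested, GS and URI share the WT libraries, and Cxcl10 rests on few barcodes in each gate.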

How the results depend on the processing

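The counts of called chemokine genes stayed within 1.5 times their value under most alternatives. In URI against WT monocytes the count was 0, and 1 (Cxcl2) with total UMIs alone as scaling, with no filter on low counts, with gate genes at 2 UMIs or more, with barcodes of 1000 UMIs or more, and with Scrublet doublets left out. In Cd8a T against other T it was 3, and 0 with no library term and 5 with only the 2 gates compared. The share of Ccl4 UMIs in the NK gate was 41.0% with doublets left out and that of Xcl1 in the other T gate 32.4% with gate genes at 2 UMIs or more. After thinning to 1000 UMIs per barcode the top 1% of barcodes held 12.6% of Ccl5, 82.6% of Ccl9 and 93.6% of Cxcl10 UMIs. Leaving out each library in turn gave 5 to 6 called genes for NK against Cd8a T, 2 to 3 for Cd8a T against other T, 6 to 7 for neutrophil against monocyte and 5 to 8 for basophil against monocyte. The cause of these changes was not tested. Scaling by total UMIs alone, the limit of 25 barcodes and the shares without the basophil gate were chosen after seeing the data. Depth limits Cxcl9 (93 UMIs in all), Cxcl16 (358 UMIs in all) and the small gates. No paired analysis was possible because the groups share fewer than 2 replicate numbers.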
